A study of Homo sapiens with 8 samples.

Results

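RNA of PC3 cells transfected with miR-150-5p was compared with RNA of mock PC3 cells on 1 oligonucleotide array, which is 1 of the 8 arrays of the series. PC3 cells come from a bone metastasis of a human prostate cancer. The array was chosen by its sample label, and its members are the genes whose probe was well above background in both dyes, 17629 of the 43317 genes on the array design. These are called ranked genes below. The question posed by the label is which genes are targets of miR-150-5p in PC3 cells. The transfected cells received miR-150-5p by Lipofectamine RNAiMAX and their RNA was labelled with Cy5. The mock cells carry the label of no transfection and their RNA was labelled with Cy3. Thus, as labelled, neither the lipid reagent nor a control miRNA is matched in the mock, the dyes were not exchanged on a further array, and an effect of the dye or of transfection itself cannot be told apart from that of miR-150-5p. Dose and time of transfection are not given in the sources used here. The remaining arrays have the same layout and hold PC3 cells with miR-150-3p, miR-99a-3p or miR-100-3p, FaDu cells that received either arm of miR-99a, and PANC-1 cells in which FOXQ1 was knocked down by either of 2 siRNAs.

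miRNAs are short RNAs that guide Argonaute proteins to messenger RNAs, most often through pairing of the miRNA seed with the 3′-untranslated region, and the paired messenger RNA is then translated less or degraded. miR-150-5p is the more abundant arm of the miR-150 hairpin and is known from mature lymphocytes, where the transcription factor MYB is its best-studied target. Its passenger strand is miR-150-3p.

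With 1 array there was no replicate and no test, so every value below describes 1 pair of RNA samples. A log2 ratio is the Cy5 level over the Cy3 level, and is negative for a gene that was lower in the transfected cells. The spot error is the error that the scanner software assigns to the log2 ratio of a spot, with a median of 0.21 over the ranked genes. Signals are background-corrected and dye-normalized intensities, and a pair of signals in parentheses gives mock cells first. Another background correction, normexp with an offset of 50 and loess, moved 101 of 285 named ratios by more than 1.5 times or turned them. Its value is given beside a ratio past 1 that it brought within 1, and for some smaller ratios. It drew ratios of dim genes toward 0 and also moved some of the brightest genes. The 300 probes printed 5 times or more had a median SD of 0.05 between their spots. No gene spot was saturated, and 81 of 60901 gene spots carried an outlier flag. Spike-in RNAs returned 0.893 of their expected log ratio, so the ratios are somewhat compressed. The mock channels of the 4 PC3 arrays stood in pairs. The mock levels of the miR-150-5p and miR-150-3p arrays differed by a median of 0.06 on the log2 scale, and those of the miR-99a-3p and miR-100-3p arrays by 0.07, whereas the 4 differences across the pairs were 0.14 to 0.15. The labels do not say whether a pair is 1 RNA sample or separate cultures. Ratios of the PC3 arrays are therefore only given side by side.

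The difference between transfected and mock cells was small for most genes. The median log2 ratio of the ranked genes was 0.03, and the middle 50% of the genes lay between −0.17 and 0.22. A log2 ratio below −1, which is less than 50% of the mock level, was found for 138 genes, or 0.783% of the ranked genes. A log2 ratio above 1 was found for 111 genes, or 0.63%. On the other PC3 arrays, 402 genes were below −1 and 462 above 1 with miR-150-3p, 697 and 730 with miR-99a-3p, and 57 and 161 with miR-100-3p. The lower and the higher genes differed in brightness. The 138 lower genes had a median mock signal of 261.5, and 115 of them (83.3%) are protein-coding by their match in RefSeq. The 111 higher genes had a median mock signal of 29.7, and 59 of them (53.2%) are protein-coding, against 70.3% of all ranked genes. A match in RefSeq was found for 124 of the lower genes, 70 of the higher genes and 13941 of the 17629 ranked genes. Genes without a match count as not protein-coding, so these shares also reflect how many genes were matched. Both signals reached 200 in 54 of the lower genes and in 19 of the higher genes. The lowest signal well above background was 13.8 in Cy3 and 28.0 in Cy5, so that a gene with a mock signal between these values was ranked only if its ratio was above 0. Counts of dim genes above 0 or above 1 are therefore fixed in part by the background filter.

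**Figure D1:**
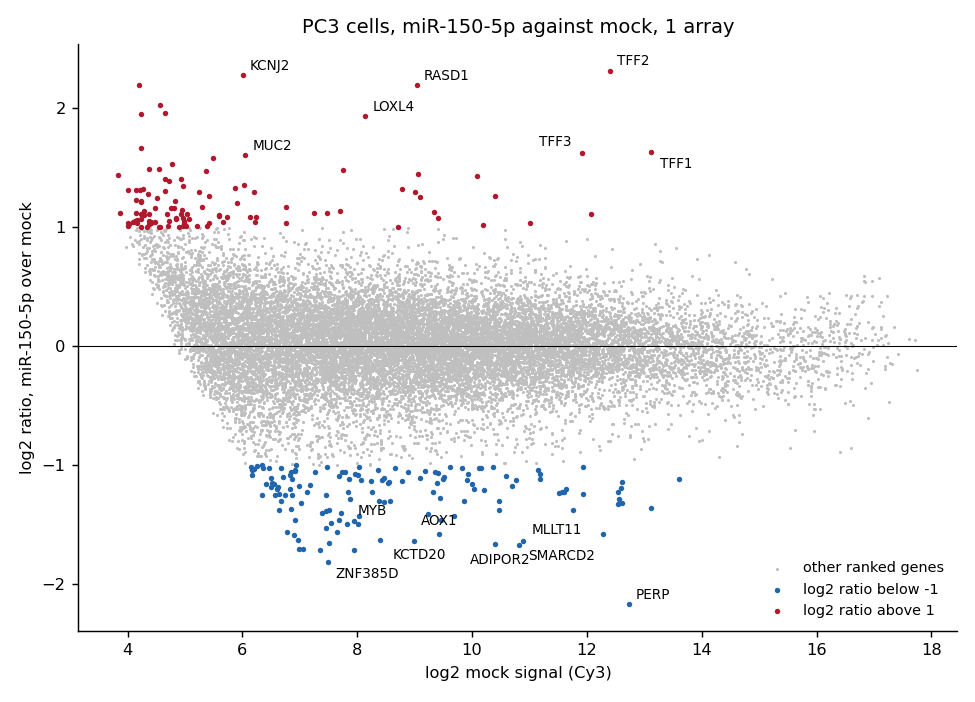
Log2 ratio of miR-150-5p over mock (y axis) against the log2 mock signal in Cy3 (x axis), 1 point per ranked gene, with the 138 genes below −1 in blue and the 111 genes above 1 in red. Most red points lie at low mock signal, where the background filter leaves no point below 0, and TFF1, TFF2 and TFF3 stand apart as bright genes with ratios of 1.62 to 2.32, while PERP is the lowest point at −2.17.

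PERP had the lowest log2 ratio of all ranked genes. PERP encodes a tetraspan membrane protein of desmosomes and is induced by p53. Its signal was 6784 in mock cells and 1509 with miR-150-5p, a log2 ratio of −2.17 with a spot error of 0.29, or 4.5-fold lower. After scaling between arrays, its log2 level was 12.75, 12.76, 12.41 and 12.50 in the 4 PC3 mock channels and 10.59 with miR-150-5p. All 4 mock levels were therefore above the transfected level, with an SD of 0.18 between them. The probe lies at chr6:138412056-138412115 in hg19. On the other PC3 arrays PERP had log2 ratios of −0.34 with miR-150-3p, 0.47 with miR-99a-3p and −0.24 with miR-100-3p.

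Among the 15 lowest genes, SMARCD2, MLLT11, ADIPOR2, AOX1 and KCTD20 were also bright. SMARCD2, a subunit of the SWI/SNF chromatin remodelling complex, read 1796 in mock and 563 in transfected cells, a log2 ratio of −1.67. MLLT11, known as a fusion partner of KMT2A in leukaemia, read 1883 in mock and 605 in transfected cells (−1.64). AOX1, aldehyde oxidase, read 683 in mock and 228 in transfected cells (−1.58), and its other probe gave −1.57. Their transfected levels were below all 4 mock levels, as were those of 135 of the 138 genes below −1 and of 31.6% of all ranked genes. The 138 genes were picked for a low ratio to 1 of these 4 mocks, and for most genes the mocks lay close together. That count was thus largely fixed in advance. The log2 level of SMARCD2 was 10.87, 10.81, 10.58 and 10.50 in the mock channels and 9.19 with miR-150-5p. That of MLLT11 was 10.94, 10.86, 11.10 and 11.07 in the mock channels and 9.29 with miR-150-5p. KCTD20 (508 to 163, −1.64) had ratios of 0.48, 0.07 and 0.11 with miR-150-3p, miR-99a-3p and miR-100-3p.

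The matrix glycoprotein tenascin C (TNC) was lower too, reading 335 in mock cells, 109 with miR-150-5p and a log2 ratio of −1.63. The remaining members of the 15 lowest genes had mock signals of 247 or less. They are ZNF385D (−1.81), the myosin light chain gene MYL10 (−1.71), the axon guidance gene NTNG1 (−1.71), the endopeptidase gene PHEX (−1.71), carboxypeptidase D (CPD, −1.70), the chemokine gene CCL26 (−1.66), LINC01293 (−1.63) and C1orf21 (−1.59). Some of these values depend on the probe or on the mock. A further probe of ZNF385D gave 0.13. The mock levels of MYL10 were 7.41 and 7.49 on the miR-150 arrays but 9.14 and 9.08 on the other PC3 arrays. CPD was below 0 on every PC3 array, with −1.40, −1.72 and −0.68 besides −1.70. After normexp, ZNF385D (−0.99), PHEX (−0.89), CPD (−0.94), CCL26 (−0.99), LINC01293 (−0.86) and C1orf21 (−0.85) were no longer below −1, whereas PERP (−2.06) was.

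**Figure D2:**
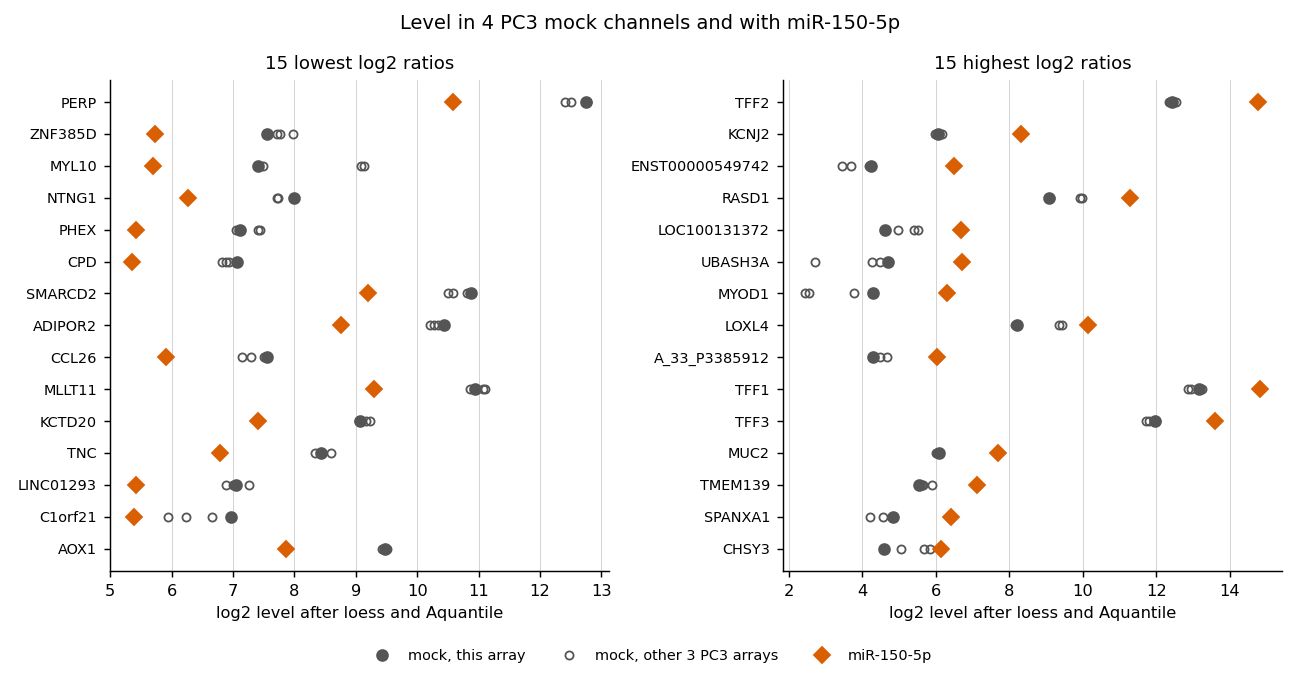
Log2 level after loess within and Aquantile scaling between arrays (x axis) of the 15 lowest genes (left) and the 15 highest genes (right). Filled circles are the mock channel of the miR-150-5p array, open circles those of the other 3 PC3 arrays, and diamonds the transfected channel. The transfected level of PERP is 10.59 against mock levels of 12.41 to 12.76, and that of TFF2 is 14.75 against 12.35 to 12.53.

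Of 20 genes that have been reported as miR-150-5p targets, 16 were ranked. Their median log2 ratio was −0.08, against 0.03 for all ranked genes, and 10 of 16 (62.5%) were below 0, against 45.8% of all ranked genes. The median was −0.14 against the mean of all 4 mocks and −0.015 over the members with both signals at 200 or more. With miR-150-3p the median of the same list was −0.16, and 11 of 17 ranked members were below 0. It was 0.36 with miR-99a-3p (4 of 18 below 0) and 0.24 with miR-100-3p (7 of 18). On the miR-150-5p array only ADIPOR2 and MYB were below −1, and none was above 1. ADIPOR2, a receptor of adiponectin, had a signal of 1353 in mock cells and 427 with miR-150-5p, a log2 ratio of −1.67 with a spot error of 0.26. Its log2 level was 10.43, 10.33, 10.20 and 10.27 in the mock channels and 8.76 with miR-150-5p, and its probe lies at chr12:1897392-1897451 in hg19. MYB, a transcription factor of blood progenitors, had a signal of 234 in mock cells and 96.4 with miR-150-5p, a log2 ratio of −1.28 with a spot error of 0.24. The log2 level of MYB was 7.92, 7.98, 7.97 and 7.97 in the mock channels and 6.62 with miR-150-5p, at a probe of chr6:135540223-135540282. For both genes the mock levels lay close together and above the transfected level. After normexp MYB was at −0.99. On the other PC3 arrays ADIPOR2 had ratios of 0.01, 0.70 and 0.44, and MYB −0.49, −0.22 and 0.37, in the order miR-150-3p, miR-99a-3p and miR-100-3p.

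Next in order were ELK1, an ETS transcription factor activated by ERK, at −0.91 (−0.53 after normexp), and ZEB1, a repressor of epithelial genes, at −0.70. Other probes of both genes gave smaller values, −0.16 for ELK1 and −0.15 for ZEB1. The ATP-gated channel gene P2RX7 stood at −0.50. FOXP1 was at −0.26, but another of its 3 probes gave 0.33. ARRB2, NOTCH3, GAB1, CCR6 and MUC4 lay between −0.13 and 0.05, each less than its spot error from 0. On the higher side were SPOCK1 (0.23), SP1 (0.28), the architectural chromatin gene HMGA2 (0.46) and the glucose transporter gene SLC2A1 (0.57). Thus, the reported targets ranged from −1.67 to 0.57 on this array. For SPOCK1, the paper cites its authors' earlier work, which reported it as a target of both miR-150 arms in prostate cancer cells. Against the mean of all 4 mocks SPOCK1 was at 0.06. On the other PC3 arrays it had −2.72 with miR-150-3p, 1.11 with miR-99a-3p and 0.56 with miR-100-3p. EGR2, CXCR4, FLT3 and SRCIN1 were not well above background in both dyes and received no ratio.

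**Figure D3:**
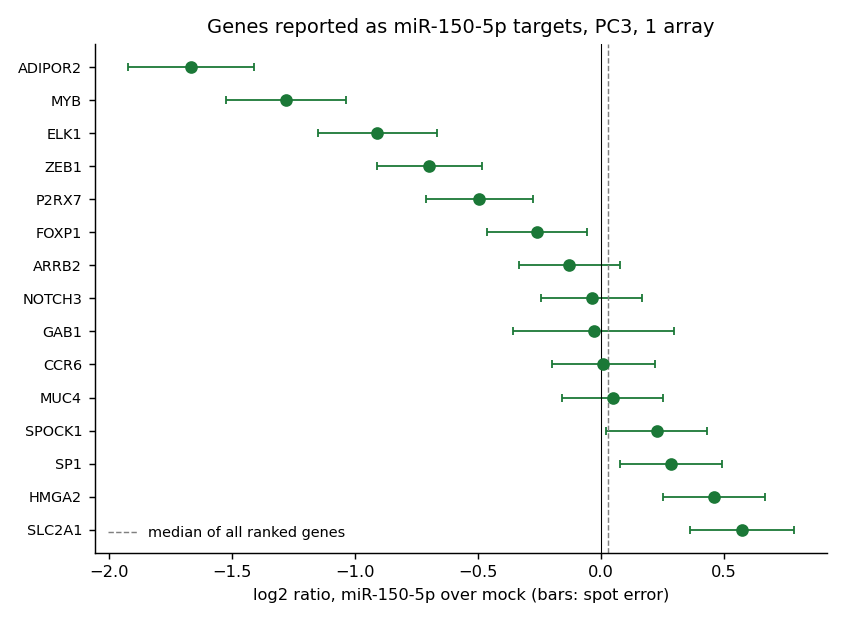
Log2 ratio of miR-150-5p over mock (x axis) for 15 of the 16 ranked genes that have been reported as miR-150-5p targets, with the spot error as bars. The dashed line is the median of all ranked genes, 0.03, and ADIPOR2 (−1.67), MYB (−1.28), ELK1 (−0.91) and ZEB1 (−0.70) lie farthest to the left.

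The 3 trefoil factors were among the 15 highest genes and were the brightest of them. These small secreted peptides are made by mucous epithelia together with mucins and take part in repair of the mucosa. TFF2 had the highest log2 ratio of all ranked genes, 2.32 with a spot error of 0.30, and it read 5418 in mock and 27003 in transfected cells. TFF1 read 8889 in mock and 27529 in transfected cells (1.63) and TFF3 3878 and 11934 (1.62). The log2 level of TFF2 was 12.42, 12.53, 12.35 and 12.38 in the mock channels and 14.75 with miR-150-5p. That of TFF1 was 13.16, 13.23, 12.94 and 12.87 against 14.81, and that of TFF3 was 11.95, 11.98, 11.80 and 11.72 against 13.58. For each of them the transfected level was above all 4 mock levels, as for 36.2% of all ranked genes. As they were picked for high ratios to 1 of these mocks, this was largely fixed in advance. The 3 probes of TFF3 differed, the lowest giving 0.37. Directions were not shared across the PC3 arrays. TFF2 had ratios of −2.04 with miR-150-3p, −0.97 with miR-99a-3p and 2.11 with miR-100-3p, TFF1 had −1.16 and −0.77 on the first pair of these and was above 1 with miR-100-3p, and TFF3 had −0.83, 1.03 and 0.93.

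The genes of the trefoil factors neighbour each other on chromosome 21 in the RefSeq gene order, as TFF3, TFF2 and TFF1. Their protein-coding neighbours were described after the values were seen. On one side lie the sterol transporter gene ABCG1 (−0.83), UMODL1 (not ranked), ZBTB21 (−0.09) and C2CD2 (0.68, second probe 0.08). On the other side lie the protease gene TMPRSS3 (0.17), UBASH3A (1.96), RSPH1 (0.14) and SLC37A1 (0.17, second probe 0.87). UBASH3A, a regulator of T cell receptor signalling, was dim (25.1 to 97.8), its mock levels ranged from 2.71 to 4.71, and its ratio was 0.70 after normexp. In this stretch, only the trefoil factors and UBASH3A were above 1.

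The mucins, glycoproteins that include the gel formers of mucus, were picked after their values were seen. Of 15 mucin genes 8 were ranked, with a median of 0.28, and 7 of 8 were above 0 (54.2% of all ranked genes were). MUC2 read 66.0 in mock and 201 in transfected cells (1.61), MUC5AC 108 and 244 (1.17) and MUC5B 817 and 1535 (0.91). The second probe of MUC5AC gave 1.29, whereas that of MUC2 gave 0.40, and after normexp MUC2 was at 1.00 and MUC5AC at 0.78. MUC6 stood at 0.37 (second probe 1.11), the membrane mucins MUC1, MUC4 and MUC16 at 0.19, 0.05 and 0.01, and MUC3A at −0.25 (second probe 0.40). The mock level of MUC16 was 6.98 here but 2.77 to 3.71 on the other PC3 arrays. Cross-hybridisation between mucins was not tested. Mock levels of MUC2 were 6.09, 6.03, 6.07 and 6.01, and its transfected level was 7.69. MUC2 was near 0 on the other PC3 arrays (0.04, 0.15 and −0.04), while MUC5B was at −1.89 with miR-150-3p. REG4, a secreted lectin of the gut and also chosen after its value was seen, was at 1.12 (0.92 after normexp), and its second probe at 1.27.

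Other high genes were the potassium channel gene KCNJ2, which was dim in mock cells, the small GTPase gene RASD1 and the lysyl oxidase gene LOXL4. KCNJ2 read 64.1 in mock and 311 in transfected cells (2.28), with mock levels of 6.05, 6.16, 6.08 and 5.99 and a transfected level of 8.31. RASD1, known for its induction by dexamethasone, read 525 in mock and 2404 in transfected cells (2.19, mean of 9 spots). Its mock levels were 9.09 and 9.11 on the miR-150 arrays and 9.97 and 9.92 on the others, so that its difference from the mean of all 4 mocks was smaller, 1.76. The mocks of LOXL4 were likewise paired, at 8.20 and 8.14 against 9.42 and 9.36. Its ratio was 1.94, but 1.35 against the mean of all 4 mocks. RASD1 was above 0 on each PC3 array, with 0.37, 1.98 and 0.85, and so was KCNJ2, with 0.74, 0.76 and 0.85. The rest of the 15 highest genes had mock signals of 44.8 or less, namely ENST00000549742 (2.20), LOC100131372 (2.02), MYOD1 (1.95), a probe without a gene name (1.67), TMEM139 (1.58), SPANXA1 (1.53) and CHSY3 (1.49). After normexp these 7 were between 0.48 and 0.85, while KCNJ2 was at 1.52. LOC100131372 was above 1 on each PC3 array, with 1.83, 3.42 and 1.43. SPANXA1 has near-identical copies, which its probe may not separate.

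Gene classes were then described by the median log2 ratio of their ranked members. Of the 55 lists 34 had a median below 0 and 21 above 0, in a range from −0.29 to 0.19, and 27 medians were within 0.1 of 0. Shares below or above 0 are to be read against the 45.8% and 54.2% of all ranked genes.

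Of these lists, the lowest median belonged to genes of mitosis, −0.29, but it was −0.15 against the mean of all 4 mocks, where those of actin (−0.24), ATF4 (−0.23), proteasome (−0.22) and interferon genes (−0.22) were lower. Of 59 ranked members 53 (89.8%) were below 0, but none was below −1. The lowest were the chromokinesin KIF4A (−0.83, second probe −0.77), the centromeric histone CENPA (−0.77) and the centrosomal kinase NEK2 (−0.67, and −0.42 after normexp). The phosphatase gene CDC25B was highest, at 0.47. Genes of DNA replication had a median of −0.21, with 43 of 53 (81.1%) below 0, and of −0.12 against the mean of all 4 mocks. Their lowest members make DNA precursors, namely the ribonucleotide reductase subunit RRM2 (639 to 273, −1.23), thymidine kinase TK1 (99354 to 54927, −0.86, and −0.47 after normexp) and thymidylate synthase TYMS (25116 to 14048, −0.84). Of these, RRM2 was the only list member below −1. Medians of mitosis genes on the other PC3 arrays were −0.67 with miR-150-3p, −2.07 with miR-99a-3p and −0.54 with miR-100-3p, and those of DNA replication genes −0.88, −1.78 and −0.34. Cell cycle genes were thus below 0 on all 4 PC3 arrays, and nearest to 0 with miR-150-5p. Among CDK inhibitors and cyclins D (median 0.07 over 14 genes, 0.005 after normexp, below the 0.02 of all genes there), the kinase gene CDK6 was at 1.02 (0.92 after normexp), the inhibitor CDKN1B (p27) at 0.66 and cyclin D3 (CCND3) at −0.67.

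**Figure D4:**
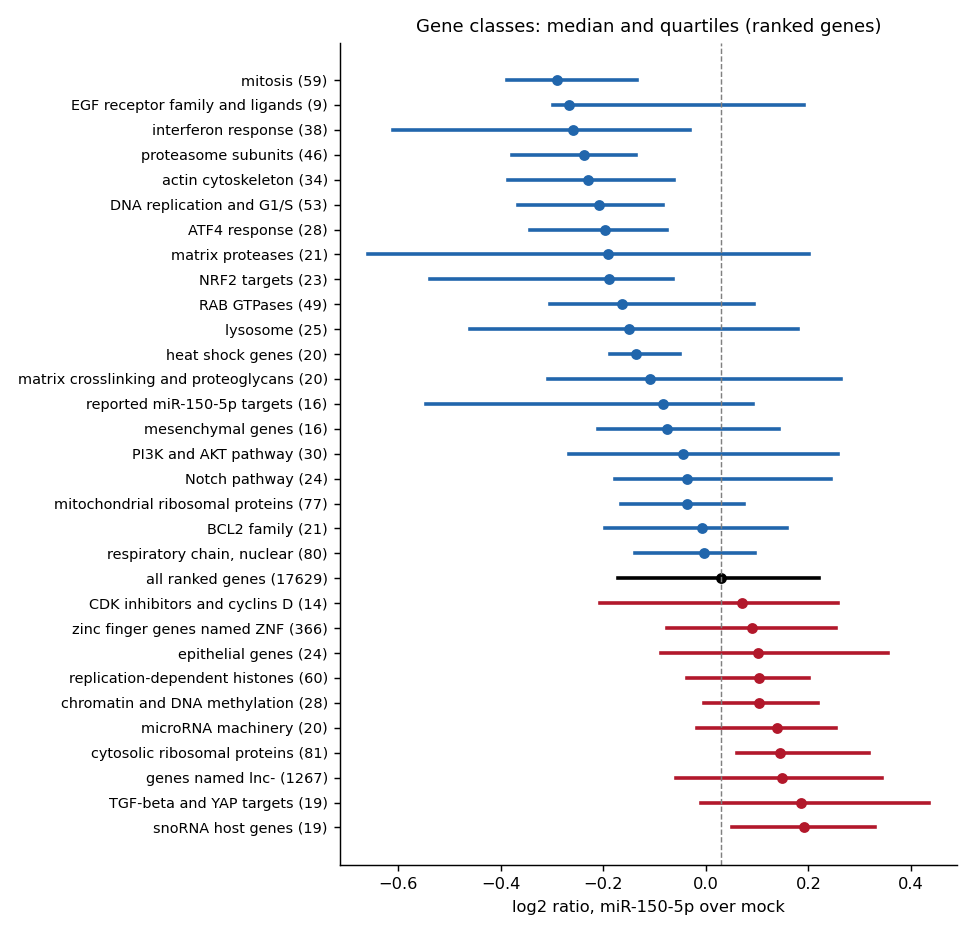
Median (point) and quartiles (line) of the log2 ratio of miR-150-5p over mock (x axis) for gene classes, with the number of ranked members in parentheses. Classes with a median under that of all ranked genes (dashed line, 0.03) are blue and the others red, from mitosis at −0.29 to snoRNA host genes at 0.19.

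Interferon-response genes were lower, with a median of −0.26 and 29 of 38 (76.3%) below 0. The antiviral gene OASL read 824 in mock and 307 in transfected cells (−1.43), IFI44 599 and 226 (−1.41) and IFIT2, which binds foreign RNA, 1667 and 738 (−1.18, second probe −1.49). Their mock levels followed the pairs, at 9.75 and 9.74 against 9.06 and 8.99 for OASL, with a transfected level of 8.31 below all 4. At the other end were IRF9 (0.37), IFI44L (0.35) and OAS1 (0.19). On the miR-150-3p array, the same list had a median of 1.81, and OASL, IFI44 and IFIT2 had 1.42, 1.67 and 1.23. With miR-99a-3p and miR-100-3p the medians were −0.13 and −0.28. The class was therefore high on 1 of the 4 PC3 arrays and below 0 on the other 3.

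APOBEC3 cytidine deaminases, which edit viral and cellular DNA and include interferon-induced members, were picked after their values were seen. All 4 ranked members of 7 were below −1 (0.783% of all ranked genes were). APOBEC3C read 8917 in mock and 3480 in transfected cells (−1.36), APOBEC3F 6004 and 2459 (−1.29), APOBEC3B 672 and 303 (−1.15) and APOBEC3G stood at −1.12 (−0.80 after normexp). The mock levels of APOBEC3C were 13.16, 13.14, 13.33 and 13.39, and its transfected level was 11.81. Their medians on the other PC3 arrays were −0.63, −1.77 and −0.66. These paralogs are alike in sequence and neighbour each other, and cross-hybridisation between their probes was not tested. Components of lipopolysaccharide and Toll receptor signalling were also picked after their values were seen. The co-receptors CD14 (−1.26) and LY96 (−1.18) were dim and stood at −0.62 and −0.63 after normexp, whereas the kinase gene IRAK1 read 3895 in mock and 1643 in transfected cells (−1.25, second probe −1.47). MYD88, the adaptor upstream of IRAK1, was at 0.02, and the 11 ranked members of 18 had a median of −0.43 (−0.094 over the members with both signals at 200 or more).

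**Figure D5:**
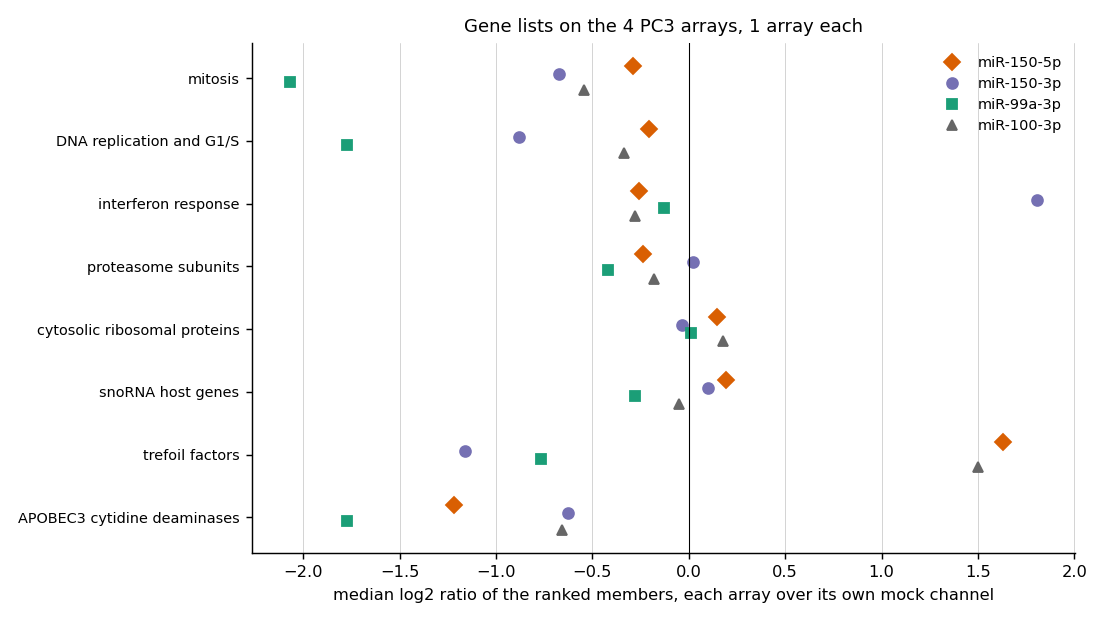
Median log2 ratio of the ranked members (x axis) of 8 gene lists on the 4 PC3 arrays, each array over its own mock channel, 1 array per miRNA. The interferon list lies at −0.26 with miR-150-5p and at 1.81 with miR-150-3p, and the trefoil factors at 1.63 and −1.16. The arrays may share mock RNA.

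Proteasome subunits, which form the protease that degrades ubiquitinated proteins, had a median of −0.24, and 42 of 46 (91.3%) were below 0. PSMD11 (−0.62), PSMB6 (−0.62) and PSMC1 (−0.52) were lowest, while the assembly chaperone gene PSMG4 (0.52) and the immunoproteasome gene PSMB10 (0.36) were highest. The scaled level of 36 of 46 (78.3%) was below all 4 PC3 mock levels, which held for 31.6% of all ranked genes. The medians on the other PC3 arrays were 0.02, −0.42 and −0.18. Heat shock genes had a median of −0.14, with 16 of 20 (80%) below 0 and the small chaperone gene HSPB1 at −0.53, for which another probe gave 0.02.

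Genes of the actin cytoskeleton had a median of −0.23, and 26 of 34 (76.5%) were below 0. Calponin 3 (CNN3, −0.80), tropomyosin 4 (TPM4, −0.70) and alpha-actinin 1 (ACTN1, −0.70) were the lowest, and the nonmuscle myosin gene MYH10 (0.61) the highest. Matrix proteases and their inhibitors had a median of −0.19 over 21 genes (−0.05 after normexp), but their spread was wide. The collagenases MMP13 (200 to 67.5, −1.57) and MMP1 (5955 to 2549, −1.22), the membrane protease MMP14 (377 to 171, −1.14) and the plasminogen activator PLAT (6237.5 to 2829.6, −1.14) were below −1, although MMP13 and MMP14 were both at −0.96 after normexp. SERPINB5 (maspin), a serpin of epithelial cells, was at 1.11, reading 4298 in mock and 9288 in transfected cells. Mock levels of MMP1 had an SD of 0.05 and those of SERPINB5 of 0.03.

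Mesenchymal genes had a median of −0.08, and of −0.22 against the mean of all 4 mocks, with TNC (−1.63), fibronectin (FN1, −0.84) and ZEB1 (−0.70) lowest and LOX (0.65), SPARC (0.41) and S100A4 (0.38) highest. Against the mean of all 4 mocks SPARC was at −0.11. Epithelial genes had a median of 0.10. MARVELD2 (0.63), ESRP2 (0.62) and CDS1 (0.59) were the highest of them, and the claudins CLDN7 (−0.43), CLDN3 (−0.35) and CLDN4 (−0.33, and −0.01 after normexp) the lowest, but CLDN7 was at 0.51 against the mean of all 4 mocks. Against the mean of all 4 mocks the epithelial median was 0.49, and the median mock levels of these genes had an SD of 0.52 between the 4 mocks. In the list of matrix crosslinking and proteoglycans (median −0.11), LOXL4 was highest at 1.94 (1.35 against the mean of all 4 mocks). Agrin (AGRN, 0.77) and LOX followed, and the lysyl hydroxylase gene PLOD1 (−0.70) was lowest.

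The response to amino acid shortage that is run by ATF4 had a median of −0.20, with 22 of 28 (78.6%) below 0. The cystathionine lyase CTH (960 to 441, −1.12), the cystine transporter SLC7A11 (3025 to 1668, −0.86) and MTHFD2 of mitochondrial folate metabolism (−0.82) were the lowest, and STC2 (0.50) the highest. SLC7A11 is shared with the NRF2 targets, the genes of the oxidant response, whose median was −0.19, with 18 of 23 (78.3%) below 0. There, the aldo-keto reductases AKR1C3 (1537 to 722, −1.09) and AKR1C1 (153 to 73.6, −1.06) were below −1 (−0.93 and −0.55 after normexp). These reductases are close paralogs, and cross-hybridisation between them was not tested. The transporter gene ABCC3 was at 0.62.

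Genes of lysosomes had a median of −0.15, with the acid glucosidase GAA at −0.79 and cathepsin Z (CTSZ) at −1.12, for which a second probe gave 0.14. RAB GTPases of vesicle traffic had a median of −0.16, with 33 of 49 (67.3%, against 45.8% of all ranked genes) below 0 and a median of −0.10 over the members with both signals at 200 or more, and RAB23 (−0.60), RAB3B (−0.59) and RAB12 (−0.52) were lowest. The EGF receptor family and its ligands had a median of −0.27, but only 9 of 13 genes were ranked. It was −0.09 against the mean of all 4 mocks and −0.035 over the members with signals of at least 200. Betacellulin (BTC, −0.74) and the receptor inhibitor LRIG1 (−0.61) were lowest (−0.45 and −0.26 after normexp), EGFR stood at −0.30 and ERBB2 at 0.19.

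Among the 55 lists, the highest median was that of snoRNA host genes, 0.19. These RNAs carry small nucleolar RNAs in their introns, and many are broken down in translation-coupled decay. Of 19 ranked members 17 (89.5%) were above 0, with SNHG19 (0.51), GAS5 (0.42) and SNHG10 (0.36) highest and SNHG4 (−0.37, second probe 0.35) lowest. None of them was below all 4 mock levels, and 15 of 19 (78.9%) were above all 4, against 36.2% of all ranked genes. Cytosolic ribosomal proteins, whose messenger RNAs share a growth-regulated start motif with several snoRNA hosts, had a median of 0.15. Here, 70 of 81 (86.4%) were above 0, with RPS18 (0.59, and 0.97 after normexp), RPS2 (0.58) and RPL34 (0.56) highest and RPL39L (−0.50) lowest. The other probes reached down to 0.10 for RPS18 and to −0.09 for RPS2, whose copies elsewhere in the genome they may not separate. The ribosomal median was 0.503 after normexp. Medians of ribosomal proteins on the other PC3 arrays were −0.03, 0.01 and 0.18, and those of snoRNA hosts 0.10, −0.28 and −0.05. Mitochondrial ribosomal proteins (−0.04) and nuclear genes of the respiratory chain (0.00, and 0.03 after normexp) lay near all ranked genes.

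Targets of TGF-beta and YAP signalling had a median of 0.19, with 14 of 19 (73.7%) above 0. The YAP targets AMOTL2 (1880 to 3365, 0.84), LATS2 (0.82) and CTGF (0.73) were highest, while TGFBI (−0.87) was lowest. Against the mean of all 4 mocks TGFBI was at −0.16. BMP signalling, picked after its values were seen, had a median of 0.28 over 17 of 18 genes. The ligand BMP2 (1.30, and 0.69 after normexp) and the pseudoreceptor BAMBI (1348 to 3245, 1.27) were above 1. ID1 (0.59), ID2 (0.28) and ID3 (0.60), which are direct BMP targets, belong to both lists, and the receptor gene BMPR2 was at −0.79 (−0.33 after normexp). BAMBI was above 0 on each PC3 array, with 2.04 with miR-99a-3p, 0.53 with miR-100-3p and a value between these with miR-150-3p.

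Genes of the miRNA machinery had a median of 0.14, and 14 of 20 (70%) were above 0. DICER1, the RNase that cuts miRNA hairpins, read 679 in mock and 1433 in transfected cells (1.08), with a mock SD of 0.06 and a ratio of 0.94 after normexp. CNOT7 (0.69, second probe 0.02), a deadenylase, and TNRC6C (0.47) followed, and TNRC6B was lowest (−0.49). DICER1 had ratios of 0.79, 1.71 and 0.17 on the other PC3 arrays. Chromatin and DNA methylation genes had a median of 0.10 (0.03 against the mean of all 4 mocks), with 21 of 28 above 0. Replication-dependent histones had a median of 0.10, with 42 of 60 (70%) above 0, and zinc finger genes named ZNF one of 0.09, with 234 of 366 (63.9%) above 0, against 54.2% of all ranked genes. Long noncoding transcripts named lnc- had a median of 0.15, and 867 of 1267 (68.4%) were above 0, but only 1267 of 8765 were ranked. Their median was 0.02 when 1 channel above background sufficed, a setting that adds mainly genes seen in the mock channel alone.

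In the Notch pathway the median was −0.04 (0.04 after normexp, above the 0.02 of all genes there). The glycosyltransferase LFNG, which modifies Notch receptors, was at 1.48, but its second probe gave 0.15. HEY1 (−0.87), a Notch target, and the gamma-secretase gene APH1A (−0.83) were lowest. PI3K and AKT pathway genes had a median of −0.04 (0.03 against the mean of all 4 mocks), from PIK3CB (−0.81, and −0.30 after normexp) to IGF1R (0.69). The BCL2 family had a median of −0.01, and its members lay from the effector BAK1 (−0.80) and PMAIP1 (−0.79) to the BH3-only genes BMF (0.81) and BCL2L11 (0.78). Each of these 3 classes held genes on both sides of 0.

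Further genes past 1 in either direction were chosen after their values were seen. The growth factor gene FGF2 was at 1.12 (second probe 1.16, and 0.86 after normexp), and IGFBP5, which binds insulin-like growth factors, at 1.32 (0.77 against the mean of all 4 mocks). The ion cotransporter SLC12A2 read 1088 in mock and 2934 in transfected cells (1.43), and GLI3, a transcription factor of Hedgehog signalling, 2050 and 4216 (1.04). Among genes below −1 were the cytokine gene IL33 (−1.47), the receptor gene IL7R (−1.31), transglutaminase 2 (TGM2, −1.12, second probe −0.75) and plakophilin 1 (PKP1, −1.02, second probe −0.82), the latter pair at −0.97 and −0.86 after normexp. PKP1 is, like PERP, a desmosome protein.

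Genes that were above background in 1 dye only can be given a bound, the bright signal over the higher of the dim signal and the lowest signal well above background in that dye. In 3262 genes only the mock channel was well above background, and 49 of these were at least 2-fold lower with miR-150-5p. In 28 genes only the transfected channel was, and all 28 were at least 2-fold higher, where the lowest Cy5 signal that counted (28.0) was itself about 2-fold the Cy3 limit (13.8). With the brightest signal below the background call as the limit, these counts were 11 and 10. The dentin gene DSPP was at least 5.8-fold lower, the adenylate kinase gene AK5 at least 4.7-fold, PRSS35 at least 3.64-fold, the interferon-induced helicase gene DDX60 at least 3.57-fold and lnc-SHPRH-1 at least 3.5-fold lower. MAL, a membrane raft protein of T cells and epithelia, was at least 6.09-fold higher, followed by ENST00000515779 (4.08), lnc-SEMA6C-2 (3.34), ENST00000609755 (3.23) and lnc-NPAS2-1 (3.14).

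Where a gene had more than 1 probe above background in both dyes, the probes mostly pointed the same way. Of the 138 genes below −1, 18 had another such probe. All other probes were below 0 in 16 of these 18 genes and below −1 in 5. Of the 111 genes above 1, 10 had another such probe. All other probes were above 0 in 9 of these 10 genes and above 1 in 4.

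Markers of PC3 cells and of other cell types were read on this array. They were not compared with the FaDu or PANC-1 arrays, so they cannot separate PC3 from other carcinoma cells. The epithelial keratins KRT8, KRT18 and KRT19 and EPCAM were bright, with mock signals of 2417, 35836, 113616 and 3823, and so was vimentin (VIM, 72693), which PC3 cells are known to express. Prostate-specific antigen (KLK3) was not well above background in either dye. The leukocyte marker PTPRC was not well above background. The endothelial marker PECAM1 (83.1 and 52.5) and the fibroblast collagen gene COL1A1 (171 and 190) were dim. Of the markers, TMPRSS2 had the highest ratio, 0.66, and PECAM1 the lowest, −0.66.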

How the data were processed

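RNA was measured on 8 Agilent 2-colour arrays with 60-mer probes, 1 per condition. The authors extracted the scans with Agilent Feature Extraction 10.7.3.1. Per the file headers, the deposited intensity values were background-corrected and dye-normalized (linear and lowess) within each array, and each spot carries the deposited log10 of its Cy5 to Cy3 ratio and the error of that value. The deposited series values are the same log10 ratios (largest difference 0). Ratios were multiplied by 3.3219 to log2. Controls were dropped, as were spots flagged as outliers within the spot or among copies of the probe. Copies were averaged, and each gene is represented by the probe that was brightest over the 8 arrays. A ranked gene passed the background flag in both dyes, in most copies where the probe had several.

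Mock spread was taken from the Cy3 channels of the 4 PC3 arrays, after loess within and Aquantile scaling between arrays of all 8 (limma 3.58.1, R 4.3.3). No test was run, and the number of arrays limits the precision. Named genes are the 15 lowest and 15 highest, the reported targets, the 3 lowest and 3 highest of each list described, the 5 largest bounds in each direction and cell markers, and further genes are said to be chosen after their values were seen. The members and lists were chosen with earlier results of these data known. Gene names are those of the hg19 array design, and RefSeq (GRCh38.p14) served for biotypes and gene order alone. Alternatives were normexp with an offset of 50 and loess, other mocks, probes and filters, outlier spots kept, the series values, and thresholds of 0.58 and 2. The normexp step was tested on simulated data, in which 200 probes with a mock signal over 200 were changed. Of these, 100% had the right direction, and the slope on the true log2 change was 0.932. Dim probes were not changed, so the simulation does not cover dim genes. Matches to the miRNA seed were not analysed here. Some genes of the lists and markers are not reported here by name. Other steps used Python 3.11.15, pandas 2.3.3, numpy 2.4.6 and matplotlib 3.10.9.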

Additional observations from a re-analysis of the deposited data

How the results depend on the processing

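The number of genes past a threshold depended on the settings. With a threshold of 0.58, 716 genes were below and 850 above, and with a threshold of 2, 1 and 5. Normexp with loess left 50 below −1 and 16 above 1, of which 49 and 16 were among the 138 and 111. Without a filter the counts were 1538 and 1684, and 940 genes were below −1 when 1 channel above background sufficed. With both signals at 200 or more, a filter chosen after seeing the data, 54 and 19 remained. Against the mean of the 4 PC3 mocks 310 genes were above 1, and against the mean of the 2 miR-150 mocks, also chosen after seeing the data, 200. Lower genes made up 55.4% of the calls, 75.8% after normexp, 33.5% against the 4 mocks, 39.6% against the 2 miR-150 mocks, 87.1% with 1 channel, 74.0% at signals of 200 and 47.7% without a filter. The median of all ranked genes stayed between −0.01 and 0.03.

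Of 350 list medians under alternatives, 50 moved by more than 1.5 times or turned, among them 9 that turned, and 14 of 35 lists had no such move. Moves larger than the median error of a single member's spots, which is no error of a median, were those of the epithelial genes (0.49) and the mucins (0.69) against the 4 mocks, the ribosomal proteins after normexp (0.50), the mucins against the 2 miR-150 mocks (0.69), the mucins (0.55) and the Toll receptor list (−0.14) with the brightest probe of this array, and the EGF receptor family (−0.035) and the Toll receptor list (−0.094) at signals of 200. The cause was not tested. Of 2280 values of single genes, leaving aside the settings chosen after seeing the data, 168 moved by more than their spot error, and no gene past a threshold of 1 changed sign. When the brightest signal below the background call served as the limit instead, 11 lower and 10 higher genes had a bound over 2, not 49 and 28. Leaving out a replicate was impossible with 1 array. Seed matches were not analysed, as the miRNA sequence was not in the tables used here. No paired analysis was possible because the series holds 1 array per condition. The mock levels of 57 of the named genes were checked for outlying values, and none was found among these. The check did not cover the other named genes, in some of which 1 mock stood apart. STC2, for example, had mock levels of 7.02, 7.39, 7.01 and 7.04. Signals near background limit the higher genes most.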
